A study of Mus musculus with 13 samples.

Results

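The genes described here are 8 transcription factors that carry circadian timing from the core clock to other genes: Dbp, Tef, Hlf, Nfil3, Ciart, Bhlhe40, Bhlhe41 and Rora. They were taken as the entries of the gene count table whose Ensembl identifier belongs to one of these symbols, 8 of 55357 genes in all. Total RNA was sequenced after removal of ribosomal RNA from the tails of mice with lymphedema, the swelling that follows failed lymphatic drainage. There were 7 libraries of a sham group (TNTSham) and 6 of a group named for Prox1 (TNTProx1), the transcription factor that sets lymphatic endothelial identity. Every mouse was 12 weeks old, and every sample was taken at day 28 after TNT, taken here to be tissue nanotransfection, the delivery of nucleic acids into skin by a short electric field. The sources used here do not give the strain, the sex, the delivered construct, the cells it reached or the hour of day at which tissue was taken. Nor do they say that each sample is its own animal, and p-values therefore measure the spread between these samples, which may be technical.

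In the mammalian clock, CLOCK and BMAL1 switch on genes through E-box elements, and the PER and CRY proteins they induce switch them off again. The output factors take that rhythm further: Dbp, Tef and Hlf are PAR bZIP proteins that activate genes through the D-box, Nfil3 (E4BP4) represses through the same element, Ciart, Bhlhe40 and Bhlhe41 repress CLOCK and BMAL1 targets, and Rora activates Bmal1 through the RORE. All 8 are protein-coding genes. On build GRCm38, Dbp lies at chr7:45705088-45710203, Tef at chr15:81802421-81826863, Hlf at chr11:90336536-90390895 and Nfil3 at chr13:52967209-52981073. Ciart lies at chr3:95878503-95882251, Bhlhe40 at chr6:108660629-108666925, Bhlhe41 on the same chromosome at chr6:145858243-145865558 and Rora at chr9:68653786-69388246. These genes are read with Per2, a core repressor whose RNA stood lower in TNTProx1.

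In short windows around annotated start sites, the E-box was spread unequally over the members, and sequence outside the windows was not searched. RefSeq windows on build GRCm38.p6, reaching from 250 bases before to 50 bases after a start site, were matched by symbol for 7 of the 8 members, all but Bhlhe40, with 2 starts for Tef. The windows were searched for the E-box CACGTG, the E'-box CACGTT, the D-box TTATGTAA or TTACGTAA, the CRE TGACGTCA and, by name, the RORE, on both strands. The Ciart window held 3 E-boxes, beginning 116, 58 and 44 bases before the start, and 29 of 32851 mouse windows of this length (0.0883%) held 3 or more. At least 1 E-box was found in 7.15% of all windows, an E'-box in 4.68%, a CRE in 1.79%, a D-box in 1.06% and a RORE in 0.384%. Each Tef window and the Bhlhe41 window held 1 E-box, and the Hlf window held no E-box and 1 CRE, the element of CREB family factors, ending just before the start. The windows of Dbp, Nfil3 and Rora held none of the 5 motifs, and no match of one motif overlapped another. The E-box and CRE were picked out after these windows had been read, so the matches are descriptions. The 250 bases before each start are printed 5′ to 3′ with the matches in capitals, from chr3:95882229-95882478 (minus strand), chr15:81802423-81802672 and chr15:81811164-81811413 (plus), chr6:145865421-145865670 (minus) and chr11:90390918-90391167 (minus).
Ciart: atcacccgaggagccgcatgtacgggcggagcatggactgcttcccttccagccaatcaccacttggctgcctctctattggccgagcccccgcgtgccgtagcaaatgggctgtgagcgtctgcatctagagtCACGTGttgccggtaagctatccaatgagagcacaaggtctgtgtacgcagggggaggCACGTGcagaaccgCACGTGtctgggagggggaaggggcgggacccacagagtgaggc
Tef, start 1: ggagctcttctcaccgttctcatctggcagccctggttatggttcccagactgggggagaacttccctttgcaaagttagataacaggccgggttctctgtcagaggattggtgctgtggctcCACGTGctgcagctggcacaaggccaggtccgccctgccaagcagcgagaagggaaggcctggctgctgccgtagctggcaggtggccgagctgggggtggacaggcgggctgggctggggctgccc
Tef, start 2: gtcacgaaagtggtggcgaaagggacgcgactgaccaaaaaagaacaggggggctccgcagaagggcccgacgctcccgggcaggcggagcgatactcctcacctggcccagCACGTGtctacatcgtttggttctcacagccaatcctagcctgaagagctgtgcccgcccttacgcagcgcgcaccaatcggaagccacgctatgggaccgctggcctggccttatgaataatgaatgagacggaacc
Bhlhe41: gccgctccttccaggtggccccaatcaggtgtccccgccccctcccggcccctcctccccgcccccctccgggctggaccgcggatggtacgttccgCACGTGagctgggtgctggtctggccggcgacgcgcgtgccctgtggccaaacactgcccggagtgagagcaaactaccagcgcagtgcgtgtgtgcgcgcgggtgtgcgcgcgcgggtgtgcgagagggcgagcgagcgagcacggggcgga
Hlf: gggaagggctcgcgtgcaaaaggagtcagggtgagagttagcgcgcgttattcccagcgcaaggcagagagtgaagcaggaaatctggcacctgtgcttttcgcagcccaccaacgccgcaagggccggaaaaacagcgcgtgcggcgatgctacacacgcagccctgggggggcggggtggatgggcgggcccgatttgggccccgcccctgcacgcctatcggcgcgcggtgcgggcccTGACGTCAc

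**Figure D1:**
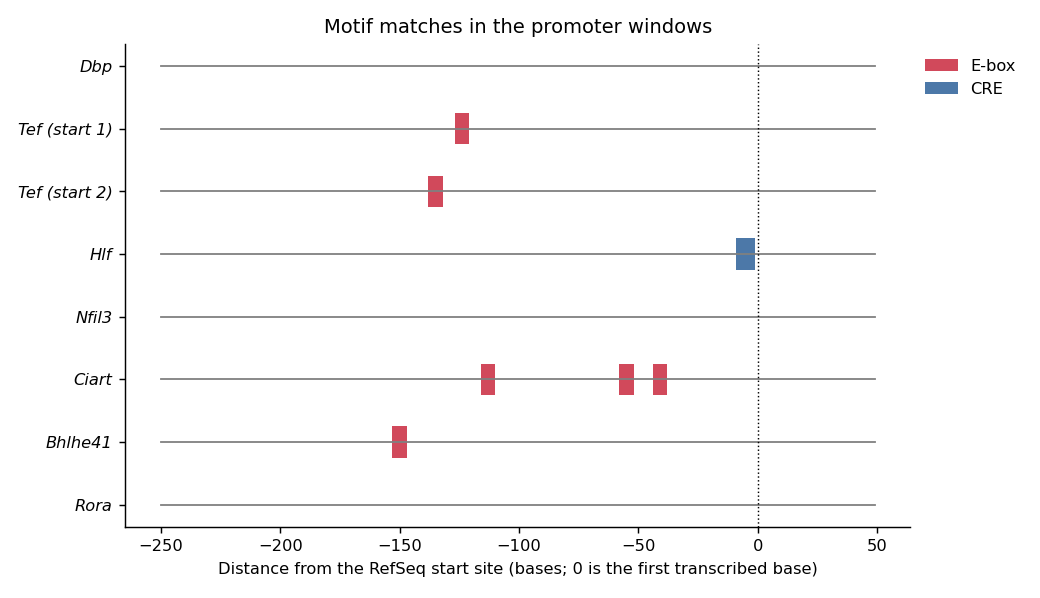
Motif matches along the promoter windows of 7 members, with distance from the RefSeq start site in bases on the x axis and 1 line per window. Coloured blocks are E-boxes and CREs, and Ciart carries 3 E-boxes where the other windows carry at most 1.

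Total counts per library ran from 29691900 to 48007400. TNTProx1 4, 5 and 6 stood apart from the other 10 libraries on the first principal component (69.6% of variance, 1000 genes) and had smaller shares of their counts on provisional TEC gene models, at 0.136 to 0.193% against 0.378 to 0.745%. TNTSham 1 had 2095 CPM of Xist and no count of the Y-linked gene Ddx3y, while Xist was at most 2.01 CPM in the other 12 libraries. Of 22876 tested genes, edgeR's quasi-likelihood test called 0 (0%) after adjustment, and 2802 (12.2%) had an unadjusted p under 0.05. CPM are counts scaled to library size with TMM factors, and log2 fold changes are TNTProx1 over TNTSham.

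Tef, Hlf and Dbp, the D-box activators, all stood lower in TNTProx1, at 0.699, 0.575 and 0.647 of the sham level, and none passed the adjusted threshold. Tef had 170 CPM at its lowest, 201 at its median and 211 at its highest in TNTSham, and 105, 127 and 178 in TNTProx1. The sham libraries were tight, 5 of 6 TNTProx1 libraries lay below all of them, and TNTProx1 4 reached into their range. Its means were 194 ± 15.2 and 135 ± 29.96 CPM (SD, n = 7 and 6), and its log2 fold change was -0.52 ± 0.13 (SE; edgeR quasi-likelihood test, adjusted p = 0.123).

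Hlf ranged from 43.7 through a median of 57.7 to 71.3 CPM in TNTSham and from 20.03 through 26.1 to 51.4 CPM in TNTProx1. TNTProx1 1 and 4, at 51.4 and 49.1 CPM, sat among the sham libraries, and the other 4 lay between 20.03 and 28.6 CPM, below every sham library. The means were 56.6 ± 8.49 and 32.6 ± 14.0 CPM (SD, n = 7 and 6), and the log2 fold change was -0.80 ± 0.22 (SE; edgeR quasi-likelihood test, adjusted p = 0.147).

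Dbp showed the widest spread of the 3 activators relative to its mean, with a coefficient of variation of 47.1% in TNTProx1 against 19.04% in TNTSham. Its sham values ran from 38.5 through a median of 52.0 to 60.4 CPM, and its TNTProx1 values from 17.6 through 28.0 to 55.7 CPM. TNTProx1 4 held the highest TNTProx1 value and TNTProx1 5 the lowest, and 4 of 6 lay below the sham range. Means of 48.5 ± 9.24 and 31.4 ± 14.8 CPM (SD, n = 7 and 6) gave a log2 fold change of -0.63 ± 0.25 (SE; edgeR quasi-likelihood test, adjusted p = 0.308). Sphk2, on the other strand, shares 539 of the 2993 exonic bases of Dbp, and the sources used here do not say whether the counting used strand.

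Nfil3, the D-box repressor, was the only one of the 8 whose mean stood higher in TNTProx1. Values ran from 10.2 through a median of 14.9 to 22.6 CPM in TNTSham and from 14.9 through 19.5 to 28.6 CPM in TNTProx1. The groups overlapped widely, and only TNTProx1 5 lay above the highest sham library, TNTSham 1. The mean went from 15.3 ± 4.25 to 20.3 ± 4.68 CPM (SD, n = 7 and 6), with a log2 fold change of 0.41 ± 0.19 (SE; edgeR quasi-likelihood test, adjusted p = 0.402). Without TNTProx1 4 to 6 the log2 fold change was 0.17 ± 0.21 (SE; adjusted p = 0.704 by the same test).

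Because Dbp, Tef and Hlf act on the element that Nfil3 blocks, the log2 ratio of each activator to Nfil3 in the same library is given as a description with no test, a ratio that no library scaling can move. The ratio of Hlf to Nfil3 averaged 1.92 ± 0.55 in TNTSham and 0.61 ± 0.82 in TNTProx1 (SD, n = 7 and 6), a difference of -1.31. For Dbp the ratio averaged 1.69 ± 0.67 and 0.53 ± 0.90, a difference of -1.16. For Tef it averaged 3.71 ± 0.50 and 2.74 ± 0.52, a difference of -0.97. In TNTProx1 5 and 6 the counts of Nfil3 exceeded those of Dbp and Hlf, with log2 ratios of -0.70 and -0.14 for Dbp and -0.28 and -0.12 for Hlf, while every sham library had more counts of Dbp and Hlf than of Nfil3, with no correction for gene length. The TNTProx1 ratio lay below the sham minimum in 5 of 6 libraries for Hlf, 4 for Tef and 3 for Dbp.

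Ciart (Chrono), a repressor that binds BMAL1, had the largest difference of the 8 members, at 0.462 of the sham level. In TNTSham it ran from 9.57 through a median of 15.1 to 21.5 CPM, and in TNTProx1 from 4.19 through 7.52 to 11.1 CPM. All but TNTProx1 4 lay below the sham range, whose lowest library was TNTSham 1. The mean went from 15.4 ± 4.38 to 7.11 ± 2.59 CPM (SD, n = 7 and 6), and the log2 fold change was -1.11 ± 0.25 (SE; edgeR quasi-likelihood test, adjusted p = 0.104), place 101 of 22876 genes by p. Its raw counts ran from 163 to 1033 per library, the lowest minimum of the 8.

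Bhlhe40 and Bhlhe41 (DEC1 and DEC2), related repressors that compete for E-boxes, differed less between the groups. Bhlhe40 ranged from 155 through a median of 191 to 252 CPM in TNTSham and from 138 through 165 to 222 CPM in TNTProx1. The groups overlapped almost fully, with 1 TNTProx1 library below the sham range, and the log2 fold change was -0.15 ± 0.13 (SE; edgeR quasi-likelihood test, adjusted p = 0.688). Bhlhe41 ranged from 31.4 through 50.6 to 55.4 CPM and from 27.0 through 36.2 to 49.8 CPM. Here 2 of 6 TNTProx1 libraries lay below the sham range, whose lowest value again came from TNTSham 1, and the log2 fold change was -0.35 ± 0.17 (SE; edgeR quasi-likelihood test, adjusted p = 0.433). A TEC gene model on the other strand, Gm43909, shares 1280 of the 6720 exonic bases of Bhlhe41.

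Rora, a nuclear receptor that activates Bmal1, was the member with the highest CPM. It ran from 422 through a median of 500 to 570 CPM in TNTSham and from 222 through 365 to 534 CPM in TNTProx1. TNTProx1 6 held 534 CPM, inside the sham range, and the other 5 lay below it, TNTProx1 2 the lowest. The mean went from 487 ± 58.0 to 369 ± 99.8 CPM (SD, n = 7 and 6), with a log2 fold change of -0.40 ± 0.16 (SE; edgeR quasi-likelihood test, adjusted p = 0.314).

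**Figure D2:**
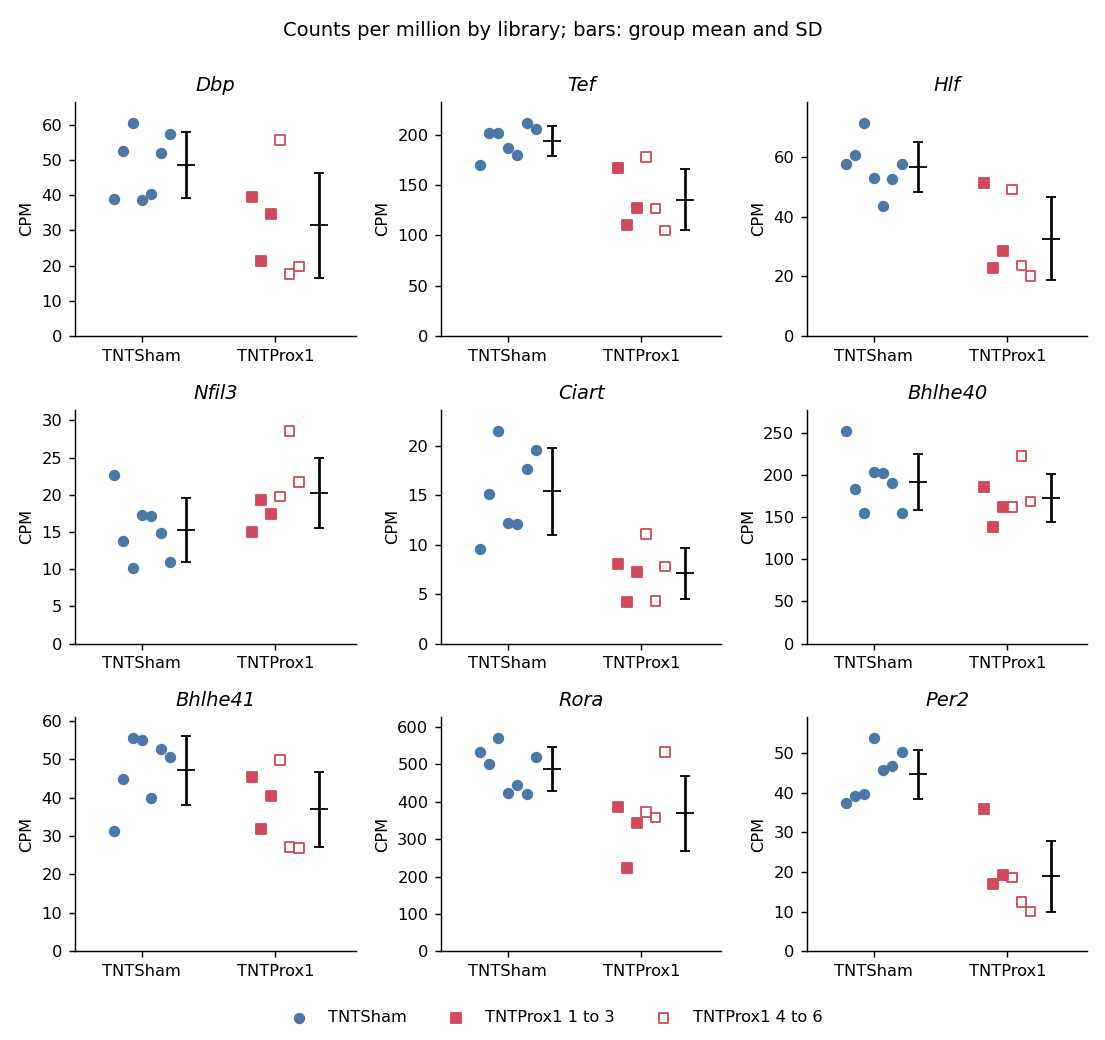
CPM (TMM-scaled) of the 8 members and Per2 in each library, with group means and SD as bars; open squares are TNTProx1 4 to 6. Per2 separates the groups completely, while every member overlaps between them.

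Per2 itself stood at 37.4 to 53.7 CPM in TNTSham and at 10.1 to 35.8 CPM in TNTProx1, without overlap. Its log2 fold change was -1.24 ± 0.23 (SE; edgeR quasi-likelihood test, adjusted p = 0.0848). Separation of this kind occurred in 0.214% of tested genes on the lower side and 0.398% on the higher side, and in 0 of the 8 members. TNTProx1 1, at 35.8 CPM, lay close to the sham range and the other 5 at or below 19.4 CPM.

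All 8 members passed the filter on low counts, and 0 of 8 were called at an adjusted p under 0.05, as was 0% of all tested genes. At an unadjusted p under 0.05, 5 members stood lower (Ciart, Tef, Hlf, Dbp and Rora), against 3.92% of all tested genes, and 1 stood higher (Nfil3), against 8.33%. The unadjusted p of Nfil3 was 0.0475 in edgeR's quasi-likelihood test. With 1 library left out, it was under 0.05 in 5 of 13 fits. That of Dbp was so in 10, and those of Ciart, Tef, Hlf and Rora in all 13. The median log2 fold change of the 8 was -0.46, that of all tested genes -0.017. The DESeq2 Wald test called Ciart (adjusted p = 0.00229), Tef (0.00999) and Hlf (0.0228). It called 3.62% of the 17106 genes to which it gave an adjusted p, fewer genes than the other fits adjusted over. Limma voom with quality weights called Tef (adjusted p = 0.0287), Hlf (0.0318), Ciart (0.0361) and Rora (0.0460), with 2.5% called. Leaving out TNTProx1 1, the library nearest to sham in Per2, edgeR's quasi-likelihood test called Hlf (adjusted p = 0.0276), Tef (0.0302) and Ciart (0.0417), with 2.55% called. With the log2 share of TEC counts as a covariate it called Ciart (adjusted p = 0.0405) and Rora (0.0380), with 2.38% called. All other alternative fits called 0 members, limma trend among them. In the 13 fits that each left out 1 library, no member's log2 fold change crossed 0. Without TNTSham 1 the log2 fold change of Nfil3 was 0.53, that of Bhlhe41 -0.43 and that of Bhlhe40 -0.07.

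Per kilobase of annotated exon, Bhlhe40 and Rora were the most abundant members and Ciart the least. Bhlhe40 stood at 40.7 ± 7.14 and 36.8 ± 6.09 CPM per kb in TNTSham and TNTProx1 (SD, n = 7 and 6), Rora at 37.3 ± 4.44 and 28.2 ± 7.64. Tef followed at 24.6 ± 1.93 and 17.2 ± 3.81, then Dbp at 16.2 ± 3.09 and 10.49 ± 4.94. The next 4 lay close together in TNTSham, with Hlf at 8.48 ± 1.27, Nfil3 at 7.54 ± 2.10, Bhlhe41 at 7.01 ± 1.33 and Ciart at 6.80 ± 1.94, neighbours in this order that did not differ beyond their SD. In TNTProx1, Nfil3 stood at 10.01 ± 2.31, beside Dbp and above Bhlhe41 at 5.50 ± 1.44, Hlf at 4.88 ± 2.09 and Ciart at 3.14 ± 1.14. These levels use the union of exons in GENCODE M21, an older build than the counts.

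No cell type marker was called at an adjusted p under 0.05, and the sums of muscle and of endothelial markers overlapped between the groups. Summed CPM of 11 skeletal muscle markers ran from 9664 to 17211 in TNTSham and from 5174 to 12223 in TNTProx1, and 6 of the 11 stood lower at an unadjusted p under 0.05. TNTProx1 1, which was near or within the sham range in Tef, Hlf, Dbp and Per2, held the TNTProx1 maximum of that sum. TNTProx1 4, which was within the sham range in Tef, Hlf and Dbp, held the minimum. In a score of the same markers, their mean scaled log2 CPM, these 2 libraries were alike, at -0.239 and -0.255. The lowest score was -1.89 in TNTProx1 2. All 5 endothelial markers stood higher at an unadjusted p under 0.05, with sums of 271 to 532 CPM in TNTSham and 459 to 670 CPM in TNTProx1. The 7 keratinocyte markers summed to 24945 to 39140 CPM in TNTSham and 5353 to 53838 CPM in TNTProx1. The lowest sum was in TNTProx1 2, which also had the lowest Rora, and the highest in TNTProx1 6, which had the highest Rora of its group. The sham libraries did not share this pairing. TNTSham 3 had the highest Rora, 570 CPM, with a keratinocyte sum of 25854, and TNTSham 5 the highest sham sum with 444 CPM of Rora. Of the 7 keratinocyte markers, 0 had an unadjusted p under 0.05. At that level 2 fibroblast, 2 macrophage and 2 bone and cartilage markers stood higher and 0 lower. Among all tested genes, 8.33% stood higher and 3.92% lower at that level. No marker of the 9 cell type lists was at 0 counts in any library. In such bulk tissue, fewer cells of a type and less RNA per cell cannot be told apart.

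With a score of the muscle markers as a covariate, the median log2 fold change of the members was -0.30, and none was called (0% of genes). Ciart had -0.67 ± 0.27, Hlf -0.58 ± 0.27, Tef -0.38 ± 0.15, Dbp -0.32 ± 0.30, Bhlhe41 -0.28 ± 0.22, Bhlhe40 -0.17 ± 0.16, Rora -0.11 ± 0.15 and Nfil3 0.26 ± 0.22 (log2 fold change ± SE). The value of Rora was nearest to 0, and those of Ciart, Hlf and Tef had an unadjusted p under 0.05 in edgeR's quasi-likelihood test, 3 members where 14.9% of all genes did. The part of endothelial and keratinocyte markers in the member values was not tested.

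The comparison of the 7 sham libraries with TNTProx1 1, 2 and 3 left the D-box activators about where they were. Dbp had a log2 fold change of -0.61 ± 0.20, Tef -0.53 ± 0.13, Hlf -0.73 ± 0.22, Ciart -1.25 ± 0.28, Rora -0.62 ± 0.17, Bhlhe41 -0.26 ± 0.17 and Bhlhe40 -0.25 ± 0.15 (SE). The smallest adjusted p-values in edgeR's quasi-likelihood test were 0.0685 for Ciart, 0.0717 for Tef and 0.0766 for Rora, with 0% of genes called. At an unadjusted p under 0.05 there were 5 members, where the share of all genes was 21.4%.

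**Figure D3:**
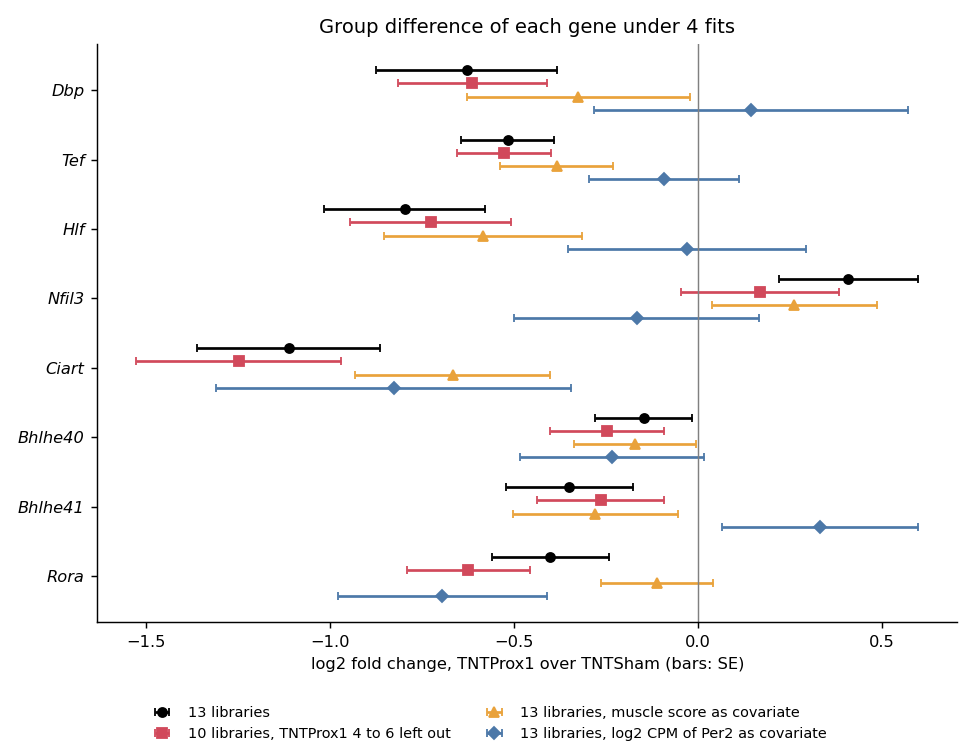
Log2 fold change of each member (x axis, TNTProx1 over TNTSham, bars SE) in 4 fits. With Per2 as a covariate Hlf and Tef lie near 0 and Dbp and Bhlhe41 past it, with the muscle score Dbp lies at -0.32 and Rora nearest to 0 of the 8, and Ciart stays below -0.6 in all 4.

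Per2 was next related to each member across libraries. Within TNTSham, where neither the group difference nor the set of TNTProx1 4 to 6 enters, 0 of the 8 members correlated with Per2 at an adjusted p under 0.05 over all 22875 other genes (0% of them), and 0 at an unadjusted exact p under 0.05 (7.79%). Rora had Pearson's r = -0.66 (exact permutation p = 0.112, adjusted 0.697) and Spearman's rho = -0.57 (exact p = 0.2). Bhlhe41 had r = 0.56 (exact permutation p = 0.191, adjusted 0.765) and rho = 0.54 (exact p = 0.236). Hlf had r = -0.48 (exact permutation p = 0.282) and the other 5 members lay between -0.22 and 0.23. The 7 sham values of Per2 spanned only 37.4 to 53.7 CPM. With 7 libraries an adjusted p under 0.05 was nearly out of reach, because only many genes tied at the smallest exact p could attain it. The count of 0 after adjustment therefore does not show that a relation is absent. Leaving out TNTSham 1 and 2, the farthest from the Per2 median in log2 CPM, left r at -0.61 for Rora and 0.03 for Bhlhe41, and for Bhlhe41 r was 0.24 without TNTSham 1 alone and 0.58 without TNTSham 2 alone. Without TNTSham 7, r of Rora was -0.87 (exact permutation p = 0.0431, adjusted 0.472).

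Within TNTProx1, where Per2 spanned 10.1 to 35.8 CPM, r with Per2 was positive for the 3 D-box activators and negative for the D-box repressor, and Hlf was the only one with an unadjusted p under 0.05. The values were r = 0.82 for Hlf (exact permutation p = 0.0278, adjusted over all genes 0.551; rho = 0.89, exact p = 0.0333), 0.70 for Tef (exact p = 0.106, adjusted 0.607) and 0.67 for Dbp (exact p = 0.133, adjusted 0.629). Nfil3 had r = -0.82 (exact permutation p = 0.0583, adjusted 0.570) and rho = -0.89 (exact p = 0.0333). Bhlhe41 had r = 0.79 (exact permutation p = 0.0528, adjusted 0.567), while Ciart had 0.29, Bhlhe40 -0.07 and Rora -0.26. None passed after adjustment, as was the case for 0% of genes, and 8.55% of all genes had an unadjusted p under 0.05, against 1 of the 8 members. The smallest exact p of 6 libraries is 0.00139, so an adjusted p under 0.05 was nearly out of reach here too. Without TNTProx1 1 and 6, the farthest from the Per2 median, r was 0.52 for Hlf, 0.29 for Tef, 0.76 for Dbp, 0.83 for Bhlhe41 and -0.97 for Nfil3 over 4 libraries. TNTProx1 1 to 3 and 4 to 6 hold 3 libraries each, too few for a correlation of their own. The difference between the groups in these correlations was not tested.

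Over all 13 libraries with group means removed, Bhlhe41 had r = 0.69 with Per2 (permutation p = 0.0114, adjusted over all genes 0.328; rho = 0.73, permutation p = 0.0124) and the same 0.69 without TNTProx1 1 and 6. Hlf had 0.65 and Tef 0.64, which became 0.15 and 0.26 without those libraries, so both rested on them. Dbp had 0.56, Nfil3 -0.48, Rora -0.31, Ciart 0.24 and Bhlhe40 -0.10. When log2 CPM of Per2 was added to the model as a covariate, the group coefficient was -0.03 ± 0.32 for Hlf, -0.09 ± 0.20 for Tef, 0.14 ± 0.43 for Dbp and 0.33 ± 0.27 for Bhlhe41 (log2, SE). Ciart (-0.83 ± 0.48), Rora (-0.70 ± 0.28) and Bhlhe40 (-0.23 ± 0.25) also had a negative coefficient with Per2 in the model, and Nfil3 had -0.17 ± 0.33. In edgeR's quasi-likelihood test the unadjusted p was 0.109 for Ciart and 0.0283 for Rora (adjusted 0.541). Rora was the only member under 0.05 unadjusted, where 8.98% of all genes were. A test over the 13 libraries pooled, which holds the group difference itself, passed Tef and Hlf after adjustment, and with them 3.17% of genes. Per2 separates the groups, and the standard errors of the model with it were larger than those without Per2.

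**Figure D4:**
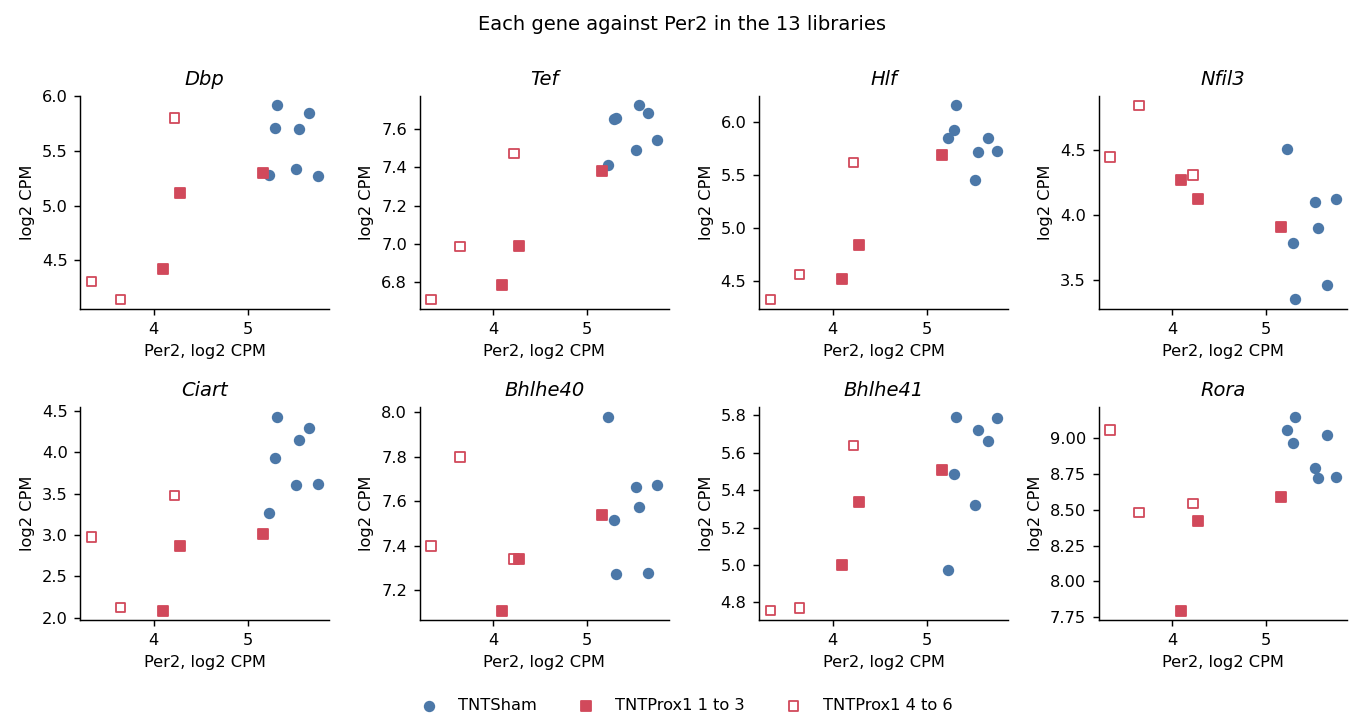
Log2 CPM of each member (y axis) against log2 CPM of Per2 (x axis) in 13 libraries; open squares are TNTProx1 4 to 6. Sham libraries form a narrow cluster at high Per2 without a slope shared by the members, and the TNTProx1 libraries spread from TNTProx1 1, beside the sham cluster, down to low Per2 with low Hlf and high Nfil3.

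The relation of the members to Nfil3 within TNTSham was examined after the values had been seen, and whether it differed from the relation to Per2 was not tested. Nfil3 and Bhlhe40 had r = 0.99 (exact permutation p = 0.000198, the smallest 7 libraries can give; adjusted over all genes 0.1995) and rho = 1. Ciart had r = -0.96 with Nfil3 (exact permutation p = 0.00119, adjusted 0.211; rho = -0.93, exact p = 0.00675) and Dbp r = -0.92 (exact permutation p = 0.00218, adjusted 0.223; rho = -0.96, exact p = 0.00278). Tef had r = -0.81 (exact permutation p = 0.0300, adjusted 0.364), Bhlhe41 -0.72, Hlf -0.55 and Rora -0.39. So 4 of the 7 other members had an unadjusted p under 0.05, where 12% of all genes did, and 0 passed after adjustment (0%). Even the smallest exact p that 7 libraries can give had an adjusted p of 0.1995, so that threshold could hardly be passed. With 1 sham library left out, the exact p of Tef was under 0.05 only without TNTSham 3 or 6, and without TNTSham 1 its r was -0.63 (exact permutation p = 0.171). Without TNTSham 1, Rora had r = -0.92 (exact permutation p = 0.0111, unadjusted) and Hlf -0.83 (exact p = 0.0361), whereas without TNTSham 3 they had -0.06 and -0.24. Without TNTSham 4, Bhlhe41 had r = -0.90 (exact permutation p = 0.0139, unadjusted). Summed CPM of the 3 neutrophil markers put the 7 sham libraries in the same order as Nfil3 and Bhlhe40. That sum fell from 257 in TNTSham 1 to 32.8 in TNTSham 3. In TNTProx1 the order differed, with the highest sum, 225, in TNTProx1 4 and the highest Nfil3 in TNTProx1 5. The part of neutrophil markers in these relations was not tested.

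TNTSham 1 and 3 lay farthest from the median of Nfil3. TNTSham 1 had the highest Nfil3 and Bhlhe40 and the lowest Ciart and Tef of its group, and TNTSham 3 the lowest Nfil3 and the highest Dbp and Ciart. Without both, r with Nfil3 was 0.99 for Bhlhe40, -0.91 for Dbp, -0.88 for Ciart, -0.85 for Rora, -0.71 for Tef, -0.68 for Hlf and -0.14 for Bhlhe41, the last of which rested on them. In TNTProx1 the same pairs had r = 0.49 for Bhlhe40, -0.64 for Dbp, -0.47 for Ciart and -0.39 for Tef, and the difference from TNTSham was not tested.

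Among the 28 pairs of members, 23 had the same sign of r in both groups. Dbp and Tef had r = 0.86 in each (exact permutation p = 0.0260 in TNTSham and 0.0236 in TNTProx1, unadjusted), and Dbp and Ciart 0.95 and 0.81. Tef and Hlf had 0.36 in TNTSham and 0.97 in TNTProx1 (exact permutation p = 0.429 and 0.00417, unadjusted), and Dbp and Bhlhe41 0.56 and 0.98. In TNTProx1 the activators and Bhlhe41 shared their highest values in TNTProx1 1 and 4. All pairs share libraries and scaling, so these values are descriptions.

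**Figure D5:**
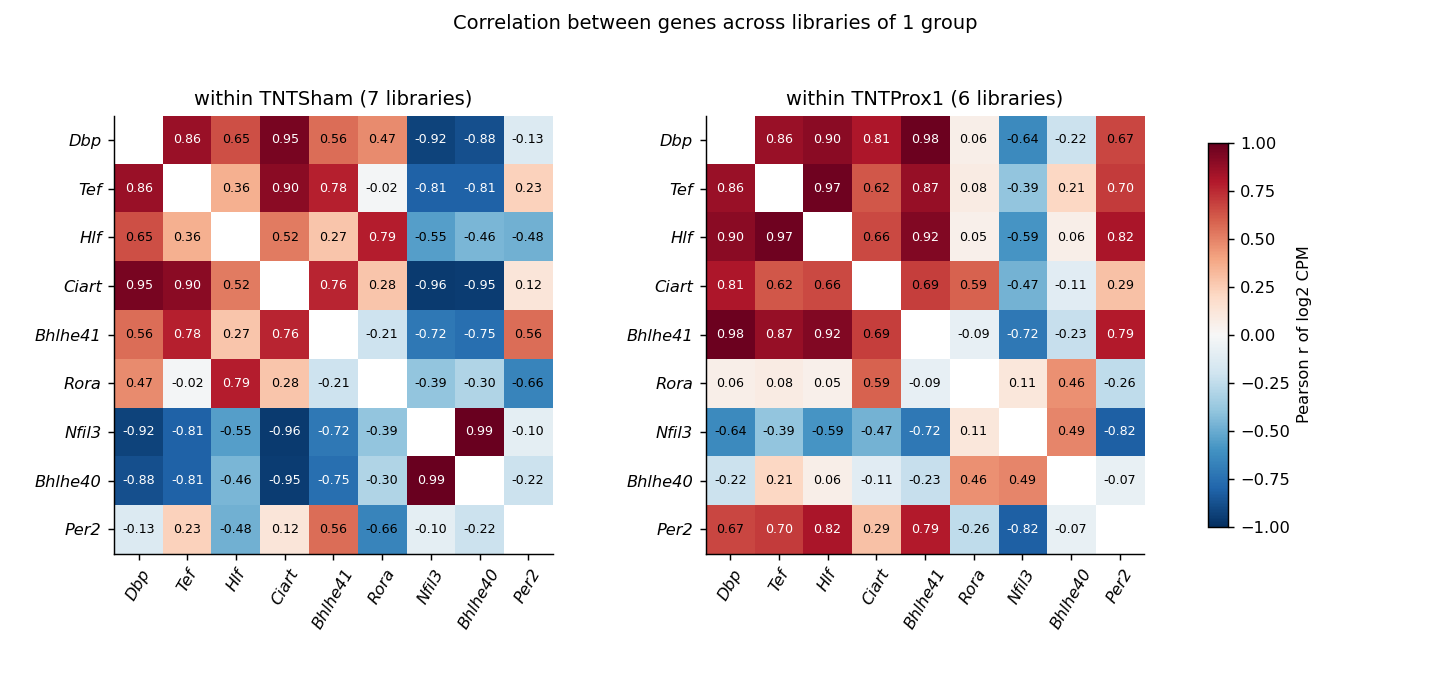
Pearson's r of log2 CPM between members and Per2 within TNTSham (7 libraries, left) and TNTProx1 (6 libraries, right); red is positive and blue negative. In TNTSham, r is positive between Nfil3 and Bhlhe40 and negative between either and Dbp, Tef and Ciart. Of these pairs only Bhlhe40 with Tef has the other sign in TNTProx1. For every pair among Dbp, Tef, Hlf and Bhlhe41, r is positive in both groups.

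The tested genes most like each member, by r of log2 CPM over 13 libraries with group means removed and among 18126 genes with a mean log2 CPM above 0, were clock genes for some members and not for others. For Dbp they were Nr1d2, a clock repressor (0.87), Tef (0.86) and Hlf (0.86), and for Tef they included Hlf (0.88) and Prodh (0.86). Hlf was most like the pseudogene AC170187.1 (0.92), Nr1d2 (0.89) and Tef (0.88). Each of the 3 activators had at least 1 of the other activators among these genes, and Per2 took place 504 for Dbp, 202 for Tef and 154 for Hlf. Bmal1 (r = -0.76, -0.80 and -0.77) lay near the opposite end for all 3.

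The other members were nearest to genes outside the clock, apart from Bhlhe41. Bhlhe41 had Mthfd2l (0.90), Per1 (0.90) and Gm43062 (0.89), with Per2 at place 186. Nfil3 had Bach1 (0.92), Litaf (0.91) and Clic4 (0.89), and Bhlhe40 had Suco (0.92), Hif1a, the hypoxia-inducible factor (0.91), and 2010008C14Rik (0.91). Ciart had Ccdc34 (0.88), Map3k1 (0.87) and 1700019D03Rik (0.86), with Per2 at place 4007, and Rora had Osbpl1a (0.96), Dnaja4 (0.96) and Spast (0.95). No p is given for these values, which are descriptions over the same 13 libraries. Only group means were removed, so the difference within TNTProx1 on the first principal component was left in the r of every member. The part of that difference in the likeness of any gene to a member was not tested.

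Of the 15 core clock genes examined beside the members, 7 stood lower and 2 higher at an unadjusted p under 0.05, against 3.92% and 8.33% of all tested genes. The median log2 fold change of the 15 was -0.40. The 2 lower genes of smallest p were Per2 and the repressor Cry1, from 21.6 ± 2.02 to 15.3 ± 2.58 CPM (SD, n = 7 and 6; log2 fold change -0.50 ± 0.12). The higher ones were Npas2, a partner of BMAL1, from 5.89 ± 0.75 to 15.3 ± 7.93 CPM (1.37 ± 0.29), and Csnk1d, a kinase of the PER proteins (0.18 ± 0.08). Among 8 genes known as clock-controlled, Wee1 stood lower (-0.58 ± 0.20) and Tspan4 higher (0.50 ± 0.16) at that level, and the median was 0.09. Of these 8, 5 had a positive and 3 a negative log2 fold change. Their summed CPM divided TNTProx1, where libraries 1 to 3 held 304 to 335 and libraries 4 to 6 held 396 to 441, all 3 above the sham range of 328 to 367.

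Bhlhe40 is also known to answer to hypoxia and Per1 to glucocorticoids, so both responses were read. Of 9 glucocorticoid response genes, 4 stood lower and 0 higher at an unadjusted p under 0.05 (median -0.21), led by Zbtb16 (-0.97 ± 0.21) and Per1 (-0.75 ± 0.18). Per1 is also 1 of the 7 lower core clock genes, so both counts hold it. The shares of all tested genes at that level were 3.92% lower and 8.33% higher. Of 12 hypoxia genes, 2 stood higher and 0 lower (median 0.21), namely P4ha1, a collagen-modifying enzyme (0.49 ± 0.11), and Car9 (0.82 ± 0.30). No gene of these 4 lists was called at an adjusted p under 0.05 by edgeR's quasi-likelihood test. Sums of the hypoxia genes ran from 855 to 1492 CPM in TNTSham. In TNTProx1 they divided in the same way, at 733 to 1077 CPM in libraries 1 to 3 and 1340 to 1655 CPM in libraries 4 to 6, so that TNTProx1 2 and 3 lay below the sham range and TNTProx1 5 and 6 above it.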

How the data were processed

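Total RNA of 13 libraries, depleted of ribosomal RNA, was sequenced as stranded paired-end reads per the labels' protocols, and the authors deposited raw counts per gene for all of them. The submitters' processing notes name fastp 0.20.1, HISAT2 2.2.1, featureCounts of Subread 2.0.2, build GRCm39 and, for their own comparison, DESeq2 1.34.0 under R 4.1.2. The sources used here do not give the strand setting, annotation release or handling of multiply aligned reads. Symbols came from a reference list of gene names or, where it held none, from GENCODE M21 (GRCm38). Together these matched 52081 of the 55357 identifiers. Classes and exon lengths came from GENCODE M21. Promoter sequences are from RefSeq (GRCm38.p6).

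Counts were scaled by TMM and tested with the quasi-likelihood F test of edgeR 4.0.16 (R 4.3.3) on the group alone, over 22876 genes kept by filterByExpr, with Benjamini-Hochberg adjustment over all of them and a threshold of 0.05. The common dispersion of 0.131 corresponds to a coefficient of variation of 0.362. Replicate numbers follow the order of the samples and pair nothing. Correlations used log2 CPM with a prior count of 2 and two-sided permutation tests, adjusted over all other tested genes. These took all 5040 orders of 7 libraries, all 720 of 6, or 100000 random orders for 13. Random orders stayed within groups, except in the pooled test, where they ran across both groups. With 6 libraries the smallest exact p is 0.00139. Both tests were tested on simulated data.

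Alternatives were DESeq2 1.42.0 (Wald test), size factors in place of TMM, upper quartile scaling, no filter or 1 CPM in 6 libraries, robust quasi-likelihood, limma 3.58.1 (voom with quality weights, trend), covariates (muscle score, TEC share, Per2), each library left out, TNTProx1 4 to 6 left out, a prior count of 0.5 and Spearman's rho. Added after seeing the data were the relation to Nfil3 and the removal of the farthest libraries in TNTProx1. The text names the 8 members, Per2, the 3 genes most like each member and, in each list, the 2 of smallest p per direction. Those list genes are printed for the 4 pathway lists where their unadjusted p was under 0.05. Cell type lists are given without gene names, and sums are printed only for skeletal muscle, endothelial, keratinocyte and neutrophil markers. Genes named outside this rule, such as Bmal1, Sphk2, Ddx3y and Xist, were chosen after their values were seen. The members and lists were chosen with earlier results of these data known. One gene that this rule named for Tef is not reported here. Protein sequences were not used here.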

Additional observations from a re-analysis of the deposited data

Results flagged for a closer look

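Of 24 sets of values examined (the CPM of each member and of Per2, and the 3 ratios to Nfil3, in each group), 1 held a library far from the others, where chance alone marks about 1 set in 20. Per2 stood at 35.8 CPM in TNTProx1 1, and the next highest TNTProx1 library had 19.4 CPM, a gap of 0.639 of the whole range against a critical value of 0.625 for 6 libraries. In the same library Hlf and Tef also stood near the sham level, at 51.4 and 167 CPM.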

How the results depend on the processing

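The number of members called depended on the test and on single libraries. It was 0 in edgeR's quasi-likelihood test, 3 with DESeq2 (619 genes called in all), 4 with limma voom with quality weights (573), 2 with the log2 TEC share as a covariate (545; Ciart, adjusted p = 0.0405, and Rora, 0.0380) and 0 to 3 with 1 library left out, the 3 without TNTProx1 1 (589). It was also 0 with DESeq2 size factors in edgeR, upper quartile scaling, no filter, 1 CPM in 6 libraries, robust quasi-likelihood and limma trend. The fits with the muscle score or Per2 as a covariate, or without TNTProx1 4 to 6, gave 0 as well. Every other fit with 1 library left out called 0 members. At an unadjusted p under 0.05 the number was 6 in edgeR's quasi-likelihood test, and 4 to 7 with 1 library left out. The median log2 fold change of the members ran from -0.53 to -0.39 with 1 library left out, was -0.30 with the muscle score and -0.13 with Per2 as a covariate, and lay between -0.57 (without TNTProx1 4 to 6) and -0.46 under the other alternatives. With Per2 as a covariate Dbp (0.14), Bhlhe41 (0.33) and Nfil3 (-0.17) took the other sign. With 1 library left out, the differences in log2 ratio to Nfil3 ran from -1.35 to -0.91 for Dbp, -1.11 to -0.85 for Tef and -1.55 to -1.13 for Hlf. Without TNTProx1 4 to 6 they were smaller in size than in any of those fits, at -0.84 for Dbp, -0.75 for Tef and -1.01 for Hlf.

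Within TNTSham, r with Per2 changed sign for 5 members with 1 library left out. It ran from -0.53 to 0.24 for Dbp, -0.25 to 0.46 for Tef, -0.41 to 0.43 for Nfil3, -0.37 to 0.41 for Ciart and -0.50 to 0.33 for Bhlhe40. The sign held for Hlf (-0.60 to -0.35), Bhlhe41 (0.24 to 0.80) and Rora (-0.87 to -0.52). Without TNTSham 1 and 2, r was -0.20 for Tef, 0.54 for Nfil3, -0.54 for Ciart and 0.45 for Bhlhe40. The sign of Dbp and Hlf was positive within TNTProx1 (0.67 and 0.82), there without TNTProx1 1 and 6 (0.76 and 0.52), over 13 libraries with group means removed (0.56 and 0.65) and those without TNTProx1 1 and 6 (0.44 and 0.15). Over 10 libraries it was positive for Dbp (0.41), Hlf (0.59), Bhlhe40 (0.25) and Rora (0.34). Pooled over 13 libraries, which mixes in the group difference, 2 members passed (Tef and Hlf), with r = 0.76 for Dbp, 0.86 for Hlf, 0.22 for Bhlhe40 and 0.40 for Rora. Rora with Nfil3 had 0.11 within TNTProx1. The cause of these shifts was not tested. No paired analysis was possible because the labels carry no number that ties a TNTSham sample to a TNTProx1 sample. Depth limits Ciart most, with 163 counts in its poorest library.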
